A study of Mus musculus with 15 samples.

Results

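The genes described here are 8 members of the purinergic and nucleotide-sensing machinery of microglia: the receptors P2ry12, P2ry13, P2ry6, Adora3 and Gpr34, the ATP-gated channels P2rx4 and P2rx7, and the ectoenzyme Entpd1. They were taken by name from a single-cell count matrix of 32372 genes and all 8 passed the filter on low counts among 14260 genes that did. The cells were microglia-enriched preparations from cortex and hippocampus of 15 male C57BL/6J mice, 3.5 months old, captured with CD45 magnetic beads and profiled with 3′ droplet single-cell RNA sequencing. All 15 mice, controls included, carried a knock-in labelled hTfR KI, in which the apical domain of the mouse transferrin receptor was replaced by its human form, and none carried an amyloid allele. ATV:4D9 is an antibody against mouse TREM2, an innate immune receptor of microglia. It is fitted with a transport vehicle that binds the human form of the transferrin receptor on brain vessels. ATV:RSV carries the same vehicle and served as the control antibody. Each mouse received 1 dose of 10 mg/kg. There were 5 groups of 3 mice: ATV:RSV collected at day 1, and ATV:4D9 collected at days 1, 7, 14 and 28. Each of 3 batches held 1 mouse of every group, and the replicate number used below is the batch. Controls were collected at day 1 alone, so at days 7, 14 and 28 treatment and time since dosing cannot be told apart. CD45 beads also bind other immune cells, so the preparation was not gated to microglia.

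Extracellular nucleotides are among the signals that microglia read from their surroundings. ATP released by active or damaged cells opens P2X channels, and its breakdown products act on G protein-coupled P2Y and adenosine receptors. P2ry12 senses ADP, directs process movement toward sites of release and is widely used as a marker of homeostatic microglia. The ectonucleotidase CD39, the product of Entpd1, removes phosphates from ATP and ADP at the cell surface and so sets how much ligand reaches the receptors.

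P2ry12 and P2ry13 are neighbours in the mouse genome, and their proximal promoters are shown because the pair differed in size of change below. In GENCODE M21 (mm10), P2ry13 occupies chr3:59207892-59210882 and P2ry12 chr3:59216272-59262871, both on the minus strand and 5389 bases apart. Both lie within Med12l (chr3:59005825-59318682), which runs on the plus strand and received 19828 unique molecular identifiers (UMIs, one per captured transcript) in the whole data set. P2rx7 (chr5:122643911-122691432) and P2rx4 (chr5:122707544-122729738) also sit side by side, 16111 bases apart. P2ry6 lies at chr7:100937630-100974649 (minus strand), Entpd1 at chr19:40612366-40741602 and Gpr34 at chrX:13632089-13640858, inside Cask, which runs on the opposite strand and received 35829 UMIs. Adora3 (chr3:105870858-105908926) overlaps Tmigd3 on the same strand. Tmigd3 held 809 UMIs and Adora3 65268, and reads from the shared stretch cannot be assigned with certainty. Whether the counting used strand or intronic reads is not given in the sources used here. The promoters (RefSeq, GRCm38.p6, 250 bases before to 50 bases after the start, written 5′ to 3′ on the gene's strand) carry in capitals any match to GAGGAA or GGAAGT, short forms of the site bound by PU.1 and other ETS factors, searched on both strands. The motifs overlap in the letters GGAA.
P2ry12 promoter, chr3:59262936-59263235, minus strand: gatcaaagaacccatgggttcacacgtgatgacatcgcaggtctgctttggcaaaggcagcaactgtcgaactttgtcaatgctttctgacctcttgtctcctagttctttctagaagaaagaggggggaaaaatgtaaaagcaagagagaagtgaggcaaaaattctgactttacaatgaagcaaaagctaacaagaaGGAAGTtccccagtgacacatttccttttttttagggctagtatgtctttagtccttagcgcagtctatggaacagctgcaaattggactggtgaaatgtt
P2ry13 promoter, chr3:59210833-59211132, minus strand: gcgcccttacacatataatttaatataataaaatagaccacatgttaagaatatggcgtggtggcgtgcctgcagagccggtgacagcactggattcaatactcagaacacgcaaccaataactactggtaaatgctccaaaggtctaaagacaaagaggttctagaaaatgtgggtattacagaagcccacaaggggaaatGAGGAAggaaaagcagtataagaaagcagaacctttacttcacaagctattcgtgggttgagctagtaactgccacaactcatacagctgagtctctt
The P2ry12 window held 0 matches to GAGGAA and 1 to GGAAGT, and the P2ry13 window held 1 and 0. Over the 32851 promoters of the table, 28.3% held GAGGAA and 23.8% held GGAAGT, so these matches are a description of the windows and no more. RefSeq promoters were matched for 6 of the 8 genes. Adora3 and both P2rx7 promoters held 1 match to each motif, P2rx4 held none, and the 2 Entpd1 promoters held 0 and 2 matches to GAGGAA.

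The matrix held 102043 cells, 5667 to 7596 per mouse, and 32341960 to 70307384 UMIs per mouse. Microglial identity held: 96.1% of cells had UMIs of at least 6 of 7 microglial markers (Tmem119, Csf1r, Cx3cr1, Siglech, Fcrls, Sall1 and Aif1). Only 748 cells had 3 or more markers of another type, 453 of them of border-associated macrophages. Cells of ATV:4D9 day 1 mice stood apart in depth and state. Their median UMIs per cell were 8201.5 to 8995.5, against 4694 to 6117 in the other 12 mice, and 19.6 to 27.4% of them had a UMI of the cycling genes Mki67 or Top2a, against at most 0.684% elsewhere. They fell mostly into a different one of the 3 deposited cell clusters: 18416 day 1 cells were in cluster 2, 945 in cluster 0 and 1098 in cluster 1, whereas ATV:RSV cells numbered 339, 11364 and 8598. Marker lists were mixed at day 1, where 34.6% of all genes tested were called lower and 34.7% higher. Of 7 microglial markers, 6 were called lower and 1 higher. Of 7 border macrophage markers, 3 were called higher (summed level 19.8 to 29.7 against 16.2 to 19.5 CPM, a unit that scales counts to a common library total). The 5 monocyte markers summed to 15.8 to 19.9 against 4.24 to 10.9 CPM. Of 11 dissociation-induced genes, 6 were called lower (12326 to 14235 against 18196 to 20268 CPM). Other summed lists were lower without overlap: oligodendrocyte (32.3 to 36.7 against 45.7 to 61.6 CPM), neuron (4.70 to 6.61 against 8.11 to 10.6), endothelial (13.6 to 17.9 against 19.0 to 24.9) and platelet (27.1 to 30.0 against 48.7 to 50.1). No listed marker lacked UMIs. The part of these shifts in the results below was not tested, except where a value without the cells concerned is given. A total of 1283 cell barcodes occurred in more than 1 library, covering 2.53% of cells. Without the cells bearing other markers, and separately without those sharing a barcode, all 8 members were still called lower at day 1. With all cells 34.6% of all genes were called lower, and the share after either removal is not given here.

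One day after ATV:4D9, transcripts of all 8 genes made up a smaller part of each mouse's UMIs than after ATV:RSV. The largest differences were in P2ry12 and Entpd1, at 0.403 and 0.416 of the control level, and the smallest were in P2rx4 and P2ry6. Counted per cell instead, P2rx4 and P2ry6 were not lower at day 1, as described below. At day 7 P2ry12 was the member that still passed the test against the controls, and at days 14 and 28 none did. Levels below are CPM of each mouse's summed UMIs, scaled by trimmed mean of M values (TMM), and differences are log2 fold changes from limma-voom over all 14260 genes with Benjamini-Hochberg adjusted p. Over the 5 groups, the moderated F test of limma-voom called all 8 genes (adjusted p from 8.29e-12 for P2ry12 to 0.0303 for P2ry6), against 66.5% of all genes tested.

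The ADP receptor P2ry12 read 2073, 2049.5 and 2032 CPM in the ATV:RSV mice of batches 1, 2 and 3, and 883, 788 and 812 CPM in the ATV:4D9 mice at day 1. At day 7 it read 1766, 1850.4 and 1657 CPM, at day 14 1970.0, 1983 and 1882 CPM, and at day 28 1970.2, 2105 and 2039.8 CPM. Every day 1 mouse lay far below every other mouse, and every day 7 mouse lay below every control. The day 14 mice also lay below every control, without a call (-0.08). The P2ry12 difference at day 1 was -1.31 (SE 0.05, limma-voom adjusted p = 3.84e-12), or 0.403 of the control level. All 8 members were called lower at day 1, in a comparison that called 34.6% of all genes tested lower. The median change was -0.56 over the members and -0.05 over all genes.

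P2ry13, a second ADP receptor, stood at 432, 403 and 452 CPM in controls and 335, 274 and 297 CPM at day 1. It read 335, 377 and 378 CPM at day 7, 412, 413 and 415 CPM at day 14, and 424, 474 and 483 CPM at day 28. The day 1 and day 7 mice were all below the controls but overlapped each other. The day 1 difference was -0.51 (SE 0.07, limma-voom adjusted p = 1.23e-05), against -1.31 for its neighbour P2ry12.

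P2ry6, the UDP receptor linked to phagocytosis, read 233, 259.9 and 249 CPM in controls and 211, 202 and 214 CPM at day 1. It then ranged from 215 to 289 CPM over the 9 later ATV:4D9 mice, spanning the control range. Its day 1 decrease was small, -0.24 (SE 0.08, limma-voom adjusted p = 0.0121), with no overlap between the groups, and it was not called when the ATV:RSV mouse of batch 2 was left out (-0.21, adjusted p = 0.0530).

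Among the ATP-gated channels, P2rx7, the low-affinity channel upstream of inflammasome activation, read 63.7, 68.5 and 65.3 CPM in controls and 39.7, 39.4 and 34.2 CPM at day 1. It read 69.2, 67.0 and 68.0 CPM at day 7 and 63.5 to 68.5 CPM at days 14 and 28. Only the day 1 mice stood apart, at -0.80 (SE 0.06, limma-voom adjusted p = 3.67e-09). P2rx4, the high-affinity channel associated with lysosomes and pain-related microglial responses, read 84.5, 84.4 and 82.9 CPM in controls and 71.1, 74.2 and 76.6 CPM at day 1. At day 7 it read 90.2, 85.5 and 89.8 CPM. Groups did not overlap at day 1, where the difference was -0.18 (SE 0.05, limma-voom adjusted p = 0.00212), while the 3 day 7 mice lay just above the controls without a call (0.08, adjusted p = 0.439).

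Entpd1, the ectonucleotidase, read 383, 326 and 309 CPM in controls and 144, 132 and 146 CPM at day 1. It read 363, 296 and 285 CPM at day 7 and stood at 293 to 348 CPM over days 14 and 28. The Entpd1 difference at day 1 was -1.27 (SE 0.10, limma-voom adjusted p = 8.29e-09), and the groups did not overlap. Adora3, an adenosine receptor acting downstream of ectonucleotidases, read 111, 91.8 and 87.6 CPM in controls and 76.8, 65.6 and 60.9 CPM at day 1. Batch 1 held the highest Adora3 value in both groups, and the groups did not overlap (-0.51, SE 0.12, limma-voom adjusted p = 0.000999). From day 7 on, Adora3 ranged from 85.1 to 119 CPM, which spans the control range.

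Gpr34, a receptor for lysophosphatidylserine that shares ancestry with the P2Y12-like receptors, read 1649, 1631 and 1711 CPM in controls and 1229, 1046 and 1003 CPM at day 1. At day 7 it read 1441, 1496 and 1422 CPM, at day 14 1611, 1610.1 and 1527 CPM, and at day 28 1598, 1697 and 1701 CPM. Day 1 mice were lowest and day 7 mice intermediate, with no overlap of either group with the controls. The day 14 mice also lay below every control, without a call (-0.07). The day 1 difference was -0.61 (SE 0.06, limma-voom adjusted p = 2.27e-07). Each of the 8 genes was lower at day 1 in 3 of 3 batches, as were 41.8% of all genes tested, and in each all day 1 mice lay below all controls, as in 35.9% of all genes.

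**Figure D1:**
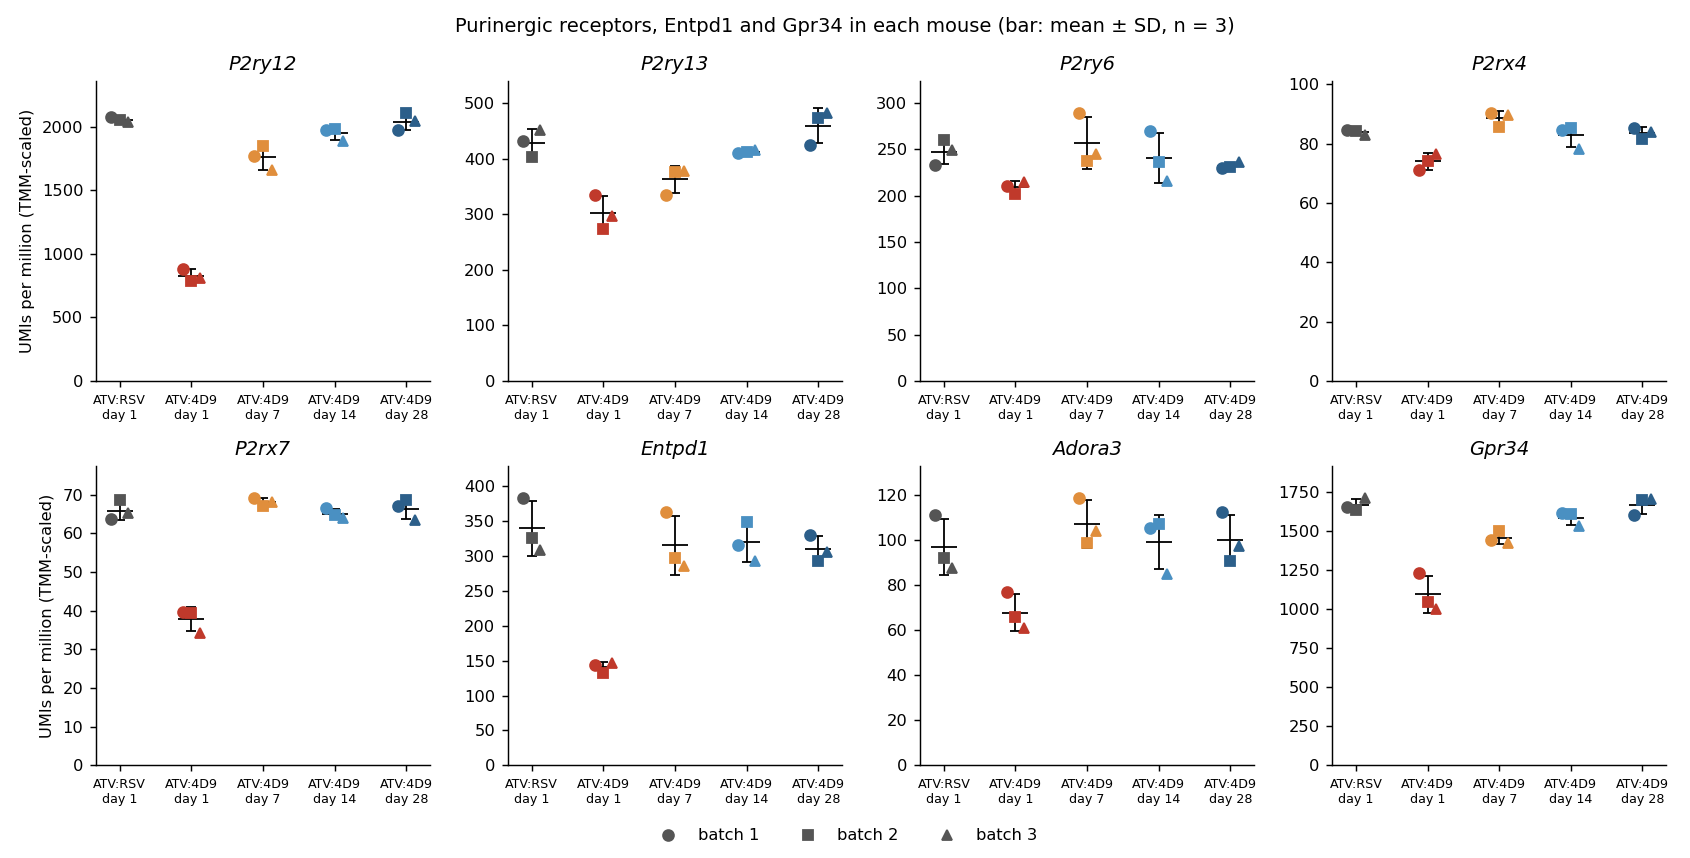
Level of each of the 8 genes in every mouse (vertical axis, CPM after TMM scaling, starting at 0) by group (horizontal axis), with batches 1, 2 and 3 as different symbols and bars for the mean ± SD of 3 mice. The 3 ATV:4D9 day 1 mice sit below all ATV:RSV mice in every panel (35.9% of all genes did so), most widely for P2ry12 (788 to 883 against 2032 to 2073 CPM) and Entpd1 (132 to 146 against 309 to 383 CPM). On the per-cell scale the sign of P2rx4 and P2ry6 turned.

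At day 7 against ATV:RSV, P2ry12 was the only member called (-0.22, SE 0.05, limma-voom adjusted p = 0.0171), in a comparison that called 0.996% of all genes lower. This call was lost without the day 7 mouse of batch 3 (adjusted p = 0.0891) and without the control of batch 1 (0.0583) or batch 2 (0.0633). P2ry13 (-0.24, adjusted p = 0.0819) and Gpr34 (-0.20, adjusted p = 0.0934) did not pass, although both were lower than the control in 3 of 3 batches without overlap. All day 7 mice lay below all controls in 3 of the 8 members and in 10.2% of all genes. DESeq2 called these 3 genes at day 7, and the share of all genes it called is not given here. The P2ry12 call was lost as UMIs per cell (-0.33, limma-voom adjusted p = 0.0533) and with the 2 compared groups alone (adjusted p = 0.0560). The remaining members lay between -0.11 for Entpd1 and 0.15 for Adora3.

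At day 14 none of the members was called (range -0.09 to 0.03, background 0.400% of genes), and at day 28 none was either (range -0.13 to 0.10, background 0%). limma-voom called 0 genes of any kind at day 28, where 571 genes but no member had an unadjusted p under 0.05. Between successive days, all 8 members were called higher at day 7 than at day 1, against 33.0% of all genes. All day 7 mice lay above all day 1 mice in 7 of 8 members and in 34.8% of all genes. These rises ran from 0.26 for P2rx4 to 1.15 for Entpd1 on the log2 scale (limma-voom adjusted p at most 0.00413), with P2ry12 at 1.09 and P2rx7 at 0.85. From day 7 to day 14 no member was called (background 0.912%). P2ry12 (0.15), P2ry13 (0.19) and P2rx4 (-0.10) had an unadjusted p under 0.05, but limma-voom adjusted p of 0.337, 0.462 and 0.620. The number of all genes with an unadjusted p under 0.05 there is not given here. From day 14 to day 28 the count was again 0 of 8 (background 0%, with 338 genes at an unadjusted p under 0.05). The day 7 and later comparisons share the control mice with the day 1 comparison. The day 7 against day 1 comparison reuses the day 1 mice, in which all 8 members had been called lower. Its calls are therefore not independent of the day 1 calls.

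Because day 1 cells held more UMIs each, a lower part of the transcriptome need not be fewer transcripts per cell. Scaled to UMIs per cell, the median gene stood at 0.32 on the log2 scale at day 1, and 4 of 8 members were called lower, against 13.4% of genes. P2ry12 averaged 13.4 ± 0.99 UMIs per cell (SD, n = 3 mice) in controls and 6.93 ± 0.84 at day 1, a difference of -0.95 (limma-voom adjusted p = 8.61e-09). Entpd1 went from 2.22 ± 0.39 to 1.18 ± 0.098 UMIs per cell (-0.90, adjusted p = 8.41e-07).

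P2rx7 (-0.44, limma-voom adjusted p = 0.00076) and Gpr34 (-0.25, adjusted p = 0.0369) were the other members lower per cell. P2ry13 (-0.15, adjusted p = 0.246) and Adora3 (-0.15, adjusted p = 0.383) were not called. For P2ry6 and P2rx4 the sign turned, to 0.12 (adjusted p = 0.322) and 0.18 (adjusted p = 0.0831), both still under the shift of the median gene. P2ry13 (-0.34 to -0.0041 over batches) and Adora3 (-0.25 to -0.034) were lower per cell in 3 of 3 batches without a call, whereas P2rx4 and P2ry6 were not lower per cell. The share of all genes lower per cell in every batch is not given here. On this scale the rise from day 1 to day 7 was called for P2ry12 (0.62), Entpd1 (0.69) and P2rx7 (0.39), against 8.93% of all genes. P2rx4 was called lower per cell at day 7 than at day 1 (-0.20, limma-voom adjusted p = 0.0482), as were 54.3% of genes.

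**Figure D2:**
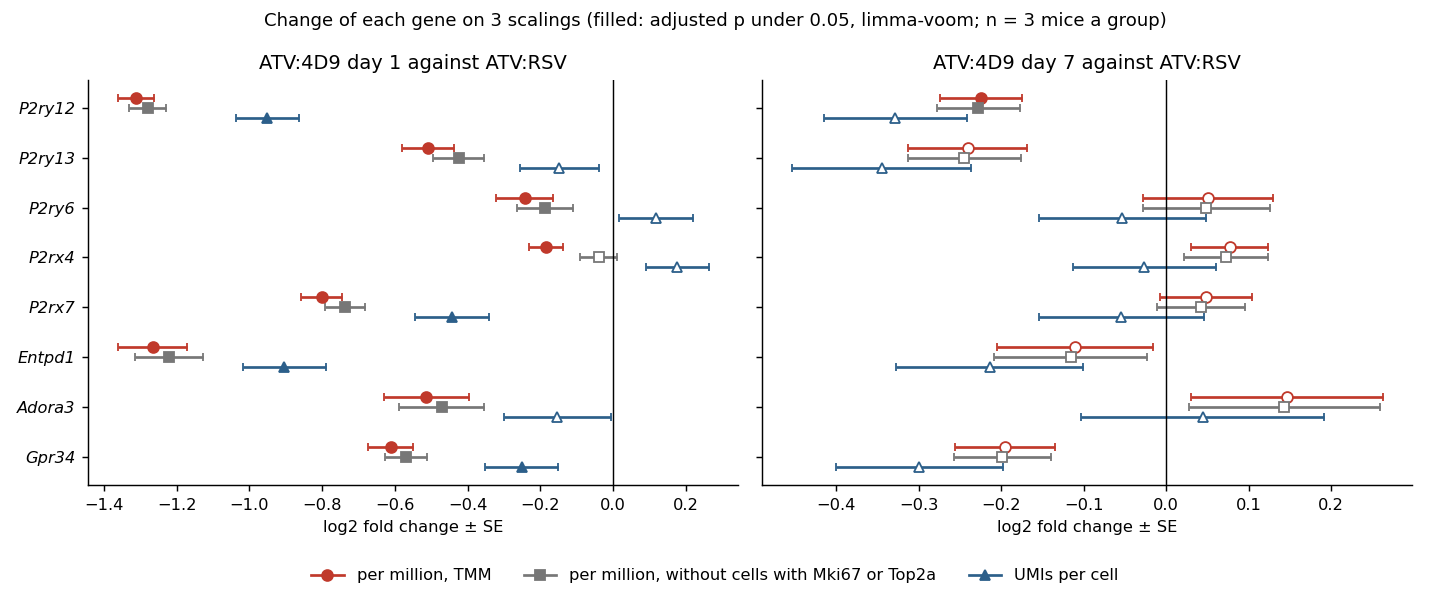
Differences from ATV:RSV (log2 fold change ± SE, limma-voom over 15 mice) for each gene at days 1 and 7 under TMM scaling, after removal of cells positive for Mki67 or Top2a, and as UMIs per cell, with filled symbols for adjusted p under 0.05. P2ry12 and Entpd1 stay near or beyond -0.90 under each at day 1, and P2rx4 moves from -0.18 to 0.18.

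To compare single cells at 1 depth, each cell was thinned to 3385 UMIs, which left out 10204 shallower cells (8.69 to 17.8% of cells in ATV:RSV mice and 3.93 to 5.79% at day 1). P2ry12 was detected in 99.3 ± 0.15% of thinned control cells (SD, n = 3 mice) and 82.4 ± 0.87% of day 1 cells. Entpd1 was detected in 68.7 ± 3.3% and 35.5 ± 0.94%, the widest gap of the 8. Gpr34 went from 98.6 ± 0.33% to 91.2 ± 2.1% and P2ry13 from 75.5 ± 2.0% to 58.8 ± 3.3%. The remaining shares were 55.5 ± 1.1% and 46.0 ± 1.0% for P2ry6, 29.0 ± 3.1% and 19.5 ± 2.9% for Adora3, 25.2 ± 0.61% and 19.1 ± 0.94% for P2rx4, and 20.7 ± 0.36% and 11.4 ± 1.2% for P2rx7.

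An exact permutation test of these shares over the 5 groups within batches (14400 arrangements, 8 genes tested, p not adjusted) gave p = 0.000139 for P2ry13 and 0.000278 for P2ry12 and Gpr34. It gave 0.00479 for P2rx7, 0.00493 for Entpd1, 0.00569 for P2rx4, 0.0338 for P2ry6 and 0.0364 for Adora3. Day 1 against ATV:RSV alone, shuffled without regard to batch, gave an exact permutation p of 0.1 for each gene, the smallest that 3 against 3 mice allow. Without the day 1 mouse of batch 3 the exact permutation p was 0.0764 for Adora3 and 0.0802 for P2ry6, and for P2ry6 it was 0.0974 without the day 1 mouse of batch 2 and 0.05 without the ATV:RSV mouse of batch 1.

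Without thinning the exact permutation p was 0.00778 for Gpr34, 0.0134 for Entpd1, 0.0211 for P2rx7 and 0.0265 for P2ry12, and from 0.0552 for P2ry13 to 0.519 for P2ry6 in the other 4 genes, and none of the 8 passed once the number of genes tested was corrected for. Unthinned, the day 1 share of P2rx4 and P2ry6 was 2.36 and 2.86 percentage points above the controls. As a measure of stray RNA, 82 cells with UMIs of at most 1 of the 7 microglial markers (median 1266 UMIs, against 5854 over all cells) had a P2ry12 UMI in 19.5%, a Gpr34 UMI in 13.4%, and UMIs of P2rx4 and of P2ry6 in 9 cells each. Entpd1 was at 3.66%, P2ry13 and P2rx7 at 2.44%, and Adora3 at 1.22%. These cells were picked as a comparator after values were seen. Every thinned share above lay over its comparator. The comparator cells were shallower than the thinned cells, so this comparison cannot tell stray RNA from depth.

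The lower P2ry12 level at day 1 appeared across the distribution of cells. At 3385 UMIs the median cell held 7 P2ry12 UMIs in each control mouse and 2 in each day 1 mouse, and the mean was 7.36 ± 0.14 against 2.78 ± 0.27 (SD, n = 3). The part of cells with 6 or more P2ry12 UMIs was 66.4 ± 0.82% in controls, 13.6 ± 3.5% at day 1 and 49.2 ± 3.0% at day 7. At this depth, cells without a P2ry12 UMI made up 17.6% at day 1 and 0.687% in controls. Unthinned, P2ry12 was detected in 94.6% of day 1 cells and 99.4% of control cells. Gpr34 went from a mean of 6.07 to 3.52 UMIs per thinned cell, and cells without an Entpd1 UMI went from 31.3 ± 3.3% to 64.5 ± 0.94%.

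**Figure D3:**
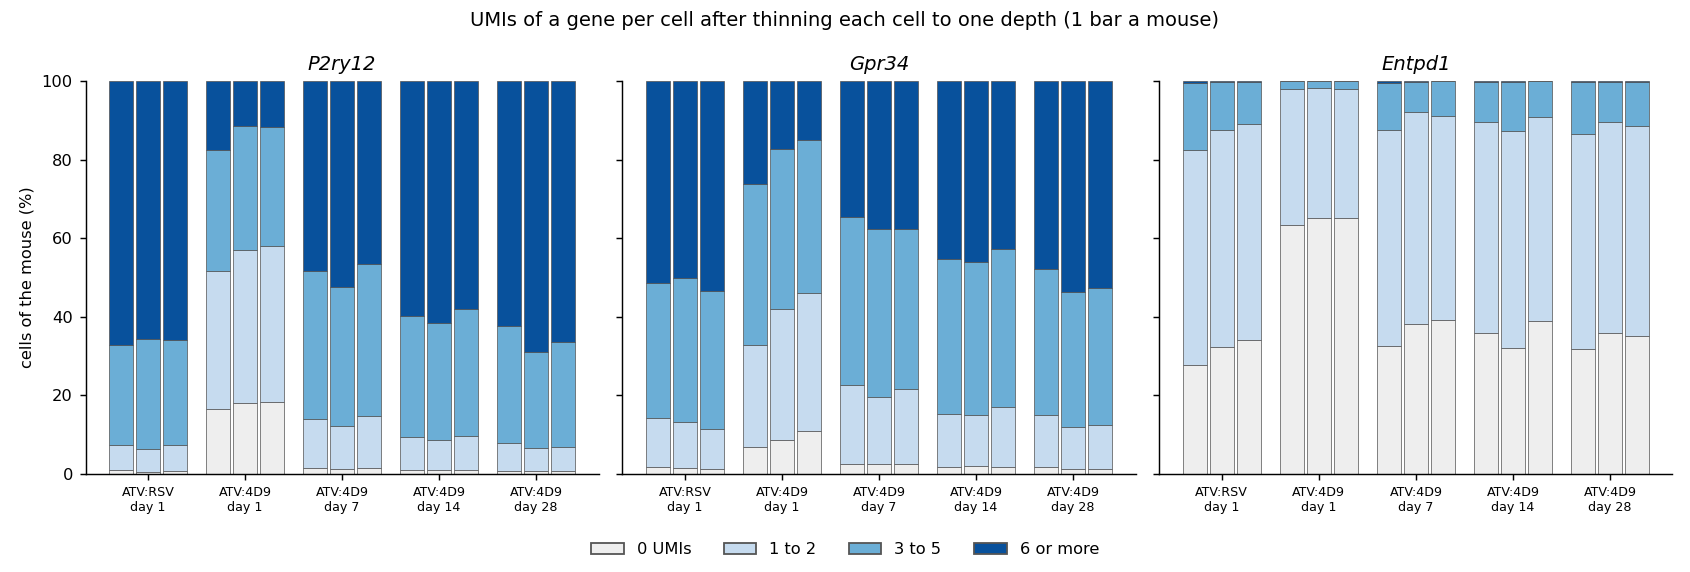
Percent of cells (vertical axis, 0 to 100) with 0, 1 to 2, 3 to 5, and 6 or more UMIs of P2ry12, Gpr34 and Entpd1 after thinning each cell to 3385 UMIs, with 1 stacked bar for each of the 15 mice in their 5 groups. The day 1 bars of P2ry12 hold 13.6% of cells with 6 or more UMIs on average, against 66.4% in ATV:RSV mice.

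The deposited clusters differed in these genes, which is given as description because the clusters were made from the same cells and genes. Levels in a cluster are CPM of that cluster's own UMIs in a mouse, without TMM scaling. In ATV:RSV mice P2ry12 averaged 2057 ± 42.7 CPM in cluster 0, 2506 ± 56.4 in cluster 1 and 1131 ± 146 in cluster 2 (SD, n = 3). Day 1 levels in the same clusters were 1637 ± 84.2, 1959 ± 113 and 688 ± 29.4 CPM, and day 7 levels were 1695 ± 108, 1937 ± 84.1 and 1015 ± 93.2 CPM. The day 1 mice lay below the controls inside each cluster, but in clusters 0 and 1 they overlapped the day 7 mice, and only in cluster 2 did they lie below all 12 other mice. Entpd1 averaged 340.2, 412 and 232 CPM in clusters 0, 1 and 2 of control mice and 224, 286 and 119.6 at day 1, and in each cluster its day 1 mice lay below all 12 other mice. P2ry13 in cluster 2 was 262 ± 11.6 CPM in controls and 262 ± 25.5 at day 1.

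Within cluster 0, day 1 against ATV:RSV called 2 members lower, P2ry12 (-0.31, limma-voom adjusted p = 0.00184) and Entpd1 (-0.60, adjusted p = 0.0201), where 1.32% of genes were called lower. Cluster 1 called the same 2 genes (-0.37, adjusted p = 8.97e-05, and -0.54, adjusted p = 0.00161), against 2.83% of genes. The Entpd1 call in cluster 0 was lost without the day 1 mouse of batch 1 (adjusted p = 0.0702) or of batch 2 (0.0963). At day 7, cluster 0 called P2ry12 lower (-0.22, adjusted p = 0.0109, background 1.19%), a call that was lost without the day 7 mouse of batch 3 (0.0606). Cluster 1 called P2ry12 (-0.24, adjusted p = 0.00227), P2ry13 (-0.28, adjusted p = 0.0172) and Gpr34 (-0.23, adjusted p = 0.00994) lower at day 7, against 1.63% of genes. Single mice decided part of this: the P2ry13 call was lost without the day 7 mouse of batch 1 (0.0989) or the controls of batch 1 (0.0513) or 3 (0.0791), and the Gpr34 call without the day 7 mouse of batch 3 (0.0659). The cells of a cluster were chosen with these genes among others, and day 1 left 180 to 555 cells per mouse in clusters 0 and 1.

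In cluster 2, which held few control cells, the comparison with at least 100 cells per mouse was day 7 against day 1. It called P2ry12 (0.51, limma-voom adjusted p = 0.000197), Entpd1 (0.92, adjusted p = 5.64e-05), P2rx4 (0.61, adjusted p = 0.000312) and P2rx7 (0.52, adjusted p = 0.0182) higher at day 7, against 15.8% of genes. The P2rx7 call was lost without the day 7 mouse of batch 1 (adjusted p = 0.123) or of batch 3 (0.129). With a minimum of 30 cells, ATV:RSV could enter, and the same 4 genes were called lower at day 1 than in control cells of cluster 2 (Entpd1 -0.88, P2ry12 -0.63, P2rx7 -0.57, P2rx4 -0.47), against 18.4% of genes. P2ry13 (0.07), P2ry6 (-0.15), Gpr34 (-0.18, limma-voom adjusted p = 0.110) and Adora3 (-0.21) were not called there.

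**Figure D4:**
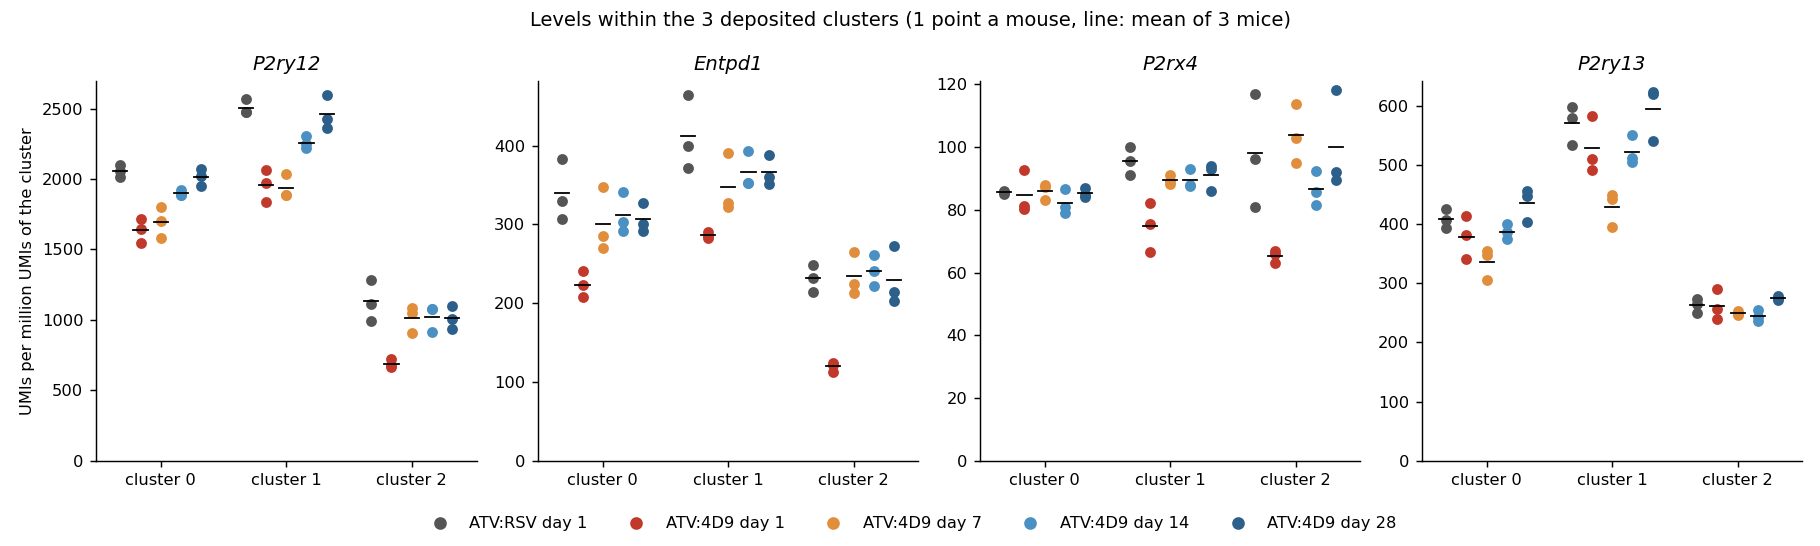
Levels of P2ry12, Entpd1, P2rx4 and P2ry13 (vertical axes, CPM of the cluster's own UMIs, starting at 0) in deposited clusters 0, 1 and 2, by group and mouse. P2ry12 is lower in cluster 2 than in the others in every group, and within cluster 2 the day 1 mice lie lowest for P2ry12 (662 to 720) and Entpd1 (113 to 124), while P2ry13 does not separate them.

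Cells with cycling transcripts held less P2rx4 than the other day 1 cells. Among day 1 cells, those with a UMI of Mki67 or Top2a stood at 51.0 CPM of P2rx4, computed on their own UMIs, and the rest at 72.5 CPM, a log2 ratio of -0.51 that ranged from -0.57 to -0.45 over the 3 mice. The ratio was -0.25 for P2ry13 (239 against 284 CPM), -0.17 for P2rx7, -0.13 for P2ry6 and -0.06 for P2ry12. Per cell, P2rx4 was again lower in the cells with these UMIs (0.581 against 0.629 UMIs, in 3 of 3 mice), but the other 7 genes were higher in them in 3 of 3 mice, such as P2ry13 at 2.74 against 2.47 UMIs. With these cells left out of all mice, the day 1 difference of P2rx4 was -0.04 (limma-voom adjusted p = 0.514), and the other 7 members were still called lower. With all cells 34.6% of all genes were called lower, and the share without these cells is not given here. Cells with these UMIs were also deeper, with a median of 10314 to 11379 UMIs per mouse against 7588 to 8418, so depth and cycling cannot be told apart here.

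Ratios between 2 genes of the same mouse do not depend on the scaling of the library. The number of P2ry12 UMIs per P2ry13 UMI was 4.79 in controls, 2.74 at day 1 and 4.84 at day 7, so the neighbouring ADP receptors changed unequally at day 1. On the log2 scale the ratio went from 2.26 ± 0.089 to 1.46 ± 0.064 (SD, n = 3). An exact permutation test over the 5 groups within batches gave p = 0.0041 (4 pairs tested, p not adjusted). P2ry12 per P2ry6 went from 3.05 to 1.99 on the log2 scale by the same exact permutation test (p = 0.00264), and P2ry12 per Gpr34 from 0.30 to -0.40 (p = 0.0222). P2rx4 per P2rx7 moved the other way, from 0.35 to 0.97 (exact permutation p = 0.0317). Each of these p values is for the 5 groups together and not for day 1 against ATV:RSV alone. P2ry12 per Gpr34 was 1.23 in controls, 0.76 at day 1 and 1.21, 1.23 and 1.22 at days 7, 14 and 28.

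The other genes of nucleotide handling were split in direction at day 1. Of 61 such genes in 6 lists, 37 passed the filter, and 26 of these were called at day 1, 14 higher and 12 lower, with a median of 0.09 (all genes -0.05). Over all genes tested, 34.7% were called higher and 34.6% lower, so these counts are close to the background. The split followed the scaling: as UMIs per cell 23 were called higher and 2 lower (49.3% and 13.4% of all genes), and with library size alone 11 and 17. Among other receptors, 2 of 4 tested were called higher and none lower: P2ry14, the UDP-sugar receptor that also lies inside Med12l, rose by 3.52 from a very low level (0.119 to 1.20 CPM, 310 UMIs in all), and Adora1 by 0.66. Among nucleotide enzymes, 5 of 8 were called higher and 1 lower, and 8 and 0 as UMIs per cell. Cd38, an enzyme that consumes NAD, was called on 110 UMIs in all (0.121 to 0.246 CPM, 1.73, SE 0.71, limma-voom adjusted p = 0.0413), with overlapping groups, and Entpd7 stood at 0.23. Adk, which returns adenosine to AMP, rose from 7.80 to 24.0 CPM (1.63, limma-voom adjusted p = 1.51e-10), and Pnp, which splits nucleosides, was at -0.13, but was called higher per cell (0.23, adjusted p = 0.026). The equilibrative nucleoside transporters Slc29a1 (0.55) and Slc29a2 (1.19) were higher and the lysosomal Slc29a3 (-0.32, but 0.04 per cell) lower.

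Of the release channels, 3 of 8 were called higher and 3 lower, and 3 and 0 as UMIs per cell: Lrrc8b (1.51) and Lrrc8c (1.43), subunits of volume-regulated anion channels, rose, and Lrrc8a (-0.42), another subunit, and Calhm2 (-0.59) fell. Of the genes that couple receptors to signalling, 6 of 11 were called lower and 1 higher (34.6% and 34.7% of all genes), but as UMIs per cell 2 were lower and 5 higher. Pik3cg, the phosphoinositide 3-kinase subunit driven by G proteins, fell from 112 to 60.7 CPM (-0.89, limma-voom adjusted p = 6.31e-08), Gnai1 was at -0.88 and Gnaq at -0.47, while Gnas, which encodes the stimulatory G protein subunit, rose from 543 to 1080 CPM (0.99, adjusted p = 5.10e-11). In the lysophosphatidylserine list Abhd12, a hydrolase of that lipid, was higher (0.48) and P2ry10b, a further receptor for it, lower (-0.39). Per cell the day 1 calls of Lrrc8a (-0.06), Calhm2 (-0.23), Gnai1 (-0.52), Gnaq (-0.11), Adcy7 (-0.20), Lrrc8d (0.12), Slc29a3 (0.04), Plcb2 (-0.19) and P2ry10b (-0.03) were lost. At day 7, 2 of the 37 were called (3.98% of all genes), Pnp (-0.37, limma-voom adjusted p = 0.000492) and Plcb2 (0.21, adjusted p = 0.0177), and at days 14 and 28 none. Plcb2, a phospholipase C, had been lower at day 1 (-0.55). Its day 7 call was lost without any 1 of the 3 day 7 mice (limma-voom adjusted p = 0.0563 to 0.0628), without the control of batch 1 (0.0729) or batch 2 (0.0769), and as UMIs per cell (0.532). With the batch as a replicate block, 5 were called at day 7, namely Pnp, Plcb2, P2ry10b, Slc17a9 and Lrrc8d, the last 2 named after their values were seen. The share of all genes called with the block is not given here.

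The genes whose log2 CPM followed each member most closely over the 15 mice were picked from 7557 genes by Pearson r, as a description. For P2ry12 they were Vsir (r = 0.994), Upk1b (0.994) and Cxxc5 (0.992), and over the 12 mice without day 1 the values were 0.875, 0.946 and 0.782. For Entpd1 they were Syk, the kinase that acts downstream of TREM2 (0.990, and 0.894 over 12 mice), Abca9 (0.989) and Tbc1d9 (0.989). P2ry13 was closest to Gpr34 (0.940, and 0.889 over 12 mice), and P2rx7 to Klhl24 (0.997, and 0.800 over 12 mice). P2rx4 was closest to Gdi2 (0.952), Adora3 to Herc4 (0.964), Gpr34 to Zadh2 (0.975) and P2ry6 to Tmem168 (0.862). The mice share batches, and each r was lower over the 12 mice than over 15.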

How the data were processed

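Cells came from 15 mice in 5 groups of 3. Per the labels, reads were aligned to mm10 with Cell Ranger 4.0.0. The study's methods name later versions, so which version made the matrix, and with it whether intronic reads were counted, is not settled here. These methods also name Seurat v4. The authors deposited UMI counts per gene and cell after their filters, which are not given in the sources used here (the files hold cells with at least 500 genes, 667 to 24995 UMIs and at most 10% mitochondrial UMIs), and a table of cells with mouse, batch and cluster. Doublet removal by the authors is not given in the sources used here, and no doublet caller was run. A further control animal was not analysed here.

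UMI counts were summed per mouse. Genes passed edgeR 4.0.16 filterByExpr (minimum count 10, minimum total 15), and limma 3.58.1 voom with TMM scaling fitted 5 group means over 15 mice in R 4.3.3. A gene was called at Benjamini-Hochberg adjusted p below 0.05 over 14260 genes. Within clusters, mice needed at least 100 cells. Thinning used the 10th percentile of UMIs per cell, 3385. Exact permutation tests over the 5 groups shuffled groups within batches (14400 arrangements, smallest p 6.9e-05). Those of 3 against 3 mice ignored the batch (smallest p 0.1). Python 3.11.15 read the matrix, and scripts were tested on simulated data.

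Batches pair the mice by the labels. Deviations of mice sharing a batch correlated at 0.0358 on average (30 pairs), and those sharing neither batch nor group at -0.0176 (60 pairs). The members and lists were chosen with earlier results of these data known. Genes named outside the members were, for each list, the 2 highest and 2 lowest called changes at day 1 and any called later, and for likeness the 3 closest by Pearson r. Alternatives were DESeq2 1.42.0, edgeR quasi-likelihood, other scalings, no filter, thinned cells, cell subsets, the batch block and leaving out each mouse.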

Additional observations from a re-analysis of the deposited data

Results flagged for a closer look

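The difference between the changes at day 7 and at day 1, both against ATV:RSV, passed the limma-voom test for each of the 8 genes (adjusted p at most 0.00413), in a comparison that called 33.0% of all genes higher. The shared controls cancel, so this difference is the day 7 against day 1 comparison given above and not a second test. This difference also rests on the day 1 mice, in which all 8 genes had been called lower. On the log2 scale it was 1.15 for Entpd1, 1.09 for P2ry12, 0.85 for P2rx7, 0.66 for Adora3, 0.42 for Gpr34, 0.29 for P2ry6, 0.27 for P2ry13 and 0.26 for P2rx4, with day 7 the higher. All 3 day 7 mice were above all 3 day 1 mice for each gene except P2ry13, whose groups overlapped by 1 mouse, and 34.8% of all genes separated in this way. As UMIs per cell, 4 of the 8 passed, P2ry12, Entpd1 and P2rx7 with day 7 the higher (8.93% of all genes) and P2rx4 with day 7 the lower (54.3%).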

How the results depend on the processing

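The day 1 call held for P2ry12, P2rx7, Entpd1 and Gpr34 under all 19 alternatives tried, with adjusted p at most 0.0369. Members called at day 1 numbered 4 as UMIs per cell and 7 or 8 otherwise, and their sign turned there for P2rx4 (0.18) and P2ry6 (0.12). At day 7 members called numbered 3 with DESeq2, 3 with library size alone, 0 as UMIs per cell, 0 with the 2 compared groups alone, and 0 to 1 when single mice were left out. With library size alone the median gene itself stood at -0.10 on the log2 scale at day 7. The share of all genes called with DESeq2 or with library size alone is not given here. From day 1 to day 7, 4 were called as UMIs per cell. Other purinergic genes called at day 7 numbered 4 with DESeq2, with edgeR quasi-likelihood, without cells positive for Mki67 or Top2a and without the cells of most UMIs, 1 with every gene that had a UMI, 5 with library size alone, and 1 to 2 when single mice were left out. The share of all genes called at day 7 in these settings, or with the batch block below, is not given here. In cluster 0 the members called ranged from 1 to 2 at day 1 and from 0 to 1 at day 7 when single mice were left out. With the batch as a replicate block, no member call changed, and other purinergic genes called at day 7 went from 2 to 5. Of those 2, Pnp was called under all alternatives and Plcb2 was not called with library size alone, as UMIs per cell, with every gene that had a UMI, with the 2 compared groups alone or with every cell thinned. The cause of these changes was not tested.

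Small differences without a call changed sign. At day 7 these were P2rx4 (-0.026 as UMIs per cell, -0.018 with library size alone), P2rx7 (-0.054 and -0.046) and P2ry6 (-0.053 and -0.044). At day 14 Adora3 was -0.023 with library size alone. At day 28 P2rx4 was 0.065 and P2ry12 0.062 as UMIs per cell, they were 0.023 and 0.0055 with every cell thinned, and P2rx7 was -0.0080 with library size alone. Gpr34 at day 28 was -0.00041 with every gene that had a UMI, -0.018 with library size alone, -0.0040 with the 2 compared groups alone, -0.0029 without cells positive for Mki67 or Top2a, -0.00074 without cells bearing markers of another type and -0.0052 without the cells of most UMIs. Leaving out single mice gave Adora3 -0.038 to 0.14 at day 14 and -0.038 to 0.15 at day 28, Entpd1 -0.15 to 0.0042 at day 14, Gpr34 -0.014 to 0.031 at day 28, P2rx4 -0.045 to 0.018 at day 14 and -0.021 to 0.012 at day 28, P2rx7 -0.042 to 0.012 at day 14 and -0.013 to 0.043 at day 28, P2ry12 -0.033 to 0.015 at day 28, and P2ry6 -0.037 to 0.11 at day 7 and -0.13 to 0.029 at day 14. Unthinned, none of the 8 shares of cells passed after correction for 8 genes, and the day 1 share was 2.36 points higher for P2rx4 and 2.86 for P2ry6. At the 25th percentile of UMIs (4383) the P2ry6 share had p = 0.103 in the exact permutation test. Leaving out single mice in the shares, clusters, ratios and successive days, and leaving out cells with a shared barcode, were chosen after seeing the data.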
